A study of Mus musculus with 18 samples.

Results

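Gene expression in pericentral hepatocytes after 24 h without food was compared with expression in the same kind of cell after 8 h. The comparison was between 6 of the 18 libraries of the series, 3 for each length of fast, and 12477 genes could be tested. All 18 libraries entered the fit, so the other groups had a part in the filter, the scaling and the estimate of spread. Pericentral hepatocytes line the draining vein of the liver lobule, and the libraries carry the label of a digitonin preparation, in which the detergent opens the hepatocytes of one side of the lobule and those of the other side are collected. All mice were wild-type C57BL/6J males aged 12 weeks on normal chow, and the labels name no transgene, deletion or drug treatment. Before the experiment they were trained for 3 days to eat in the daytime only, with an overnight fast of 16 h, and on the day itself they received food and 20% sucrose in the water. The fed mice, whose levels are set beside the comparison, were killed at clock hour 13 after 4 h of feeding. Food and sucrose were then removed, and the 8 h group was killed at clock hour 21 and the 24 h group at clock hour 13 of the next day. A further 16 h of fasting and the hour of the day therefore cannot be told apart in any result below. No label says that the 3 libraries of a group came from separate mice, so the p-values measure only the spread between libraries within the groups. In pools of cells such as these, fewer cells of a type and less RNA per cell cannot be told apart either.

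The liver bridges a fast by changing fuels. In the first hours it releases glucose from glycogen, and as glycogen runs out it makes glucose from lactate, glycerol and amino acids while burning fatty acids and exporting ketone bodies. Falling insulin, rising glucagon and the nuclear receptor PPARα, which fatty acids activate, are the best known signals behind the change. Hepatocytes also run a molecular clock, in which the activators BMAL1 (gene Arntl), CLOCK and NPAS2 switch on their own repressors, and feeding times set the phase of this clock in the liver. Pericentral cells are known for glycolysis, lipogenesis, glutamine synthesis and drug metabolism, and periportal cells for gluconeogenesis, urea synthesis and fatty acid oxidation.

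The 6 libraries held between 1.98e+07 and 2.64e+07 estimated counts, and 6.93% to 8.29% of the counts were from mitochondrial genes. The pericentral label was checked with 21 marker genes. Their summed level was 17300 to 30700 counts scaled to a common library size (CPM) in the 6 pericentral libraries and 1740 to 3930 CPM in the 6 periportal libraries of the same fasting times. Libraries of a group differed among themselves. The chi-square statistic per gene was lowest between replicates 2 and 3, at 38.1 at 8 h and 50.9 at 24 h, against 70.7 to 122 for the pairs with replicate 1. By the correlation of log2 CPM, replicates 2 and 3 were the least alike at 24 h (0.974, against 0.976 and 0.977). At 8 h they were the most alike (0.976, against 0.974 and 0.97). In replicate 2 at 24 h the gene for glutamine synthetase, Glul, which marks the cells next to the central vein, was at 111 CPM against 928 and 707 CPM in replicates 1 and 3, and the periportal libraries at 24 h held 111 to 174 CPM. The glutamate transporter gene Slc1a2, expressed in the same cells, was at 8.82 CPM in that library against 241 and 256 CPM. Ornithine aminotransferase, Oat, was at 257 CPM against 1055 and 1158 CPM. In the 8 h group replicate 1 held 12200 CPM of the fibrinogen gene Fga, against 4286 and 4404 CPM.

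A gene was called changed when the quasi-likelihood F test of edgeR gave a Benjamini-Hochberg adjusted p under 0.05 over all genes tested. By this rule 1212 genes changed between 8 h and 24 h, 9.71% of those tested. Of these, 649 were higher at 24 h (5.20% of all genes tested) and 563 were lower (4.51%). The decreases were larger than the increases. At 24 h 206 genes were lower by at least 1 log2 unit (2-fold) and 119 were higher by as much, and beyond 3 log2 units (8-fold) the numbers were 26 and 9. The median log2 fold change was 0.57 over the genes that rose, -0.78 over those that fell and -0.01 over all genes. Among those 26 were keratin genes of stratified epithelia, named after their values were seen. Krt17 was at 2.05, 2.70 and 0 CPM at 8 h and at 0 in the 3 libraries at 24 h, and Krt6b at 1.35, 1.21 and 0 CPM and then 0. Krt75, Krt5 and Krt13 had the same pattern, at 0 in replicate 3 at 8 h and in all 24 h libraries, so these calls rest on replicates 1 and 2 at 8 h. The fed pericentral libraries held 3.80, 2.80 and 3.54 CPM of Krt17 as well, and the periportal libraries at 8 h held 0, 0 and 0.0466 CPM. The count of all calls depended on single libraries, with 534 genes called without replicate 1 at 8 h, 670 without replicate 2 at 8 h, 547 without replicate 3 at 24 h and 731 without replicate 2 at 24 h, the library low in Glul. The value without that replicate 2 is given for the genes named below whose called log2 fold change it moved by over 1.5 times.

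**Figure D1:**
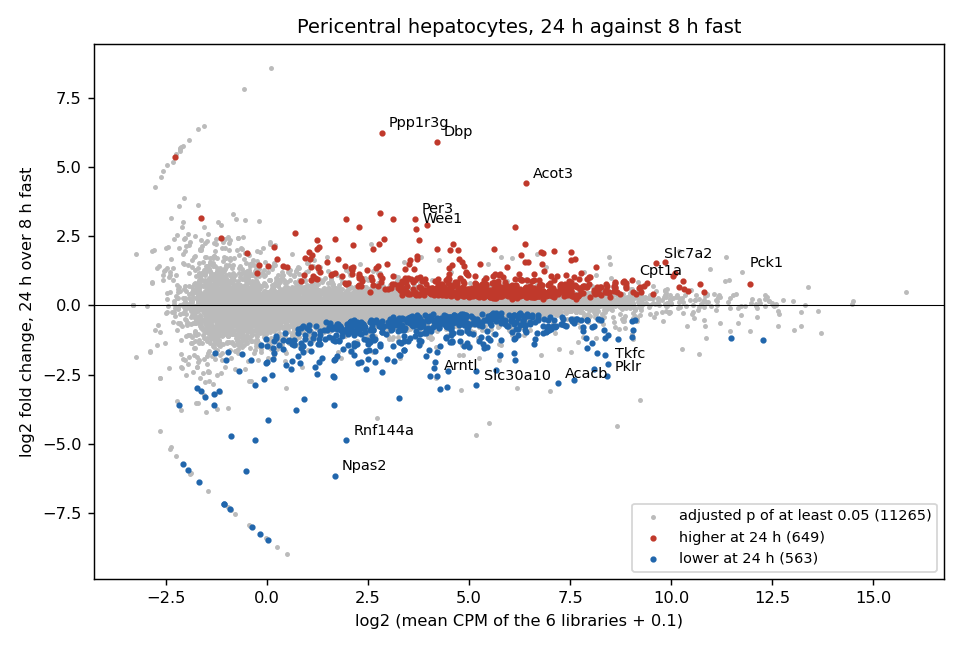
Each point is one of the 12477 genes tested, placed by its mean level in pericentral hepatocytes (horizontal axis, log2 CPM) and its log2 fold change from 8 h to 24 h of fasting (vertical axis). The coloured points are the 649 genes called higher and the 563 called lower at an adjusted p under 0.05, and the lower ones reach farther from 0.

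Clock genes were among the largest changes in both directions. Of 19 genes of the clock loop, 10 rose and 2 fell, 63.2% of the list against 9.71% of all genes tested. The median log2 fold change was 0.60 against -0.01 over all genes. The 2 that fell belong to the activating arm. The 10 that rose are repressors of that arm or transcription factors of the clock's output.

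Npas2, an activator that partners with BMAL1, was at 6.64, 7.25 and 4.45 CPM in the 3 libraries at 8 h. At 24 h it was at 0.0781, 0.147 and 0 CPM, which came from 2, 4 and 0 estimated counts. This was a log2 change of -6.15 ± 0.47 (SE, n = 3 and 3; edgeR adjusted p = 1.71e-06), and without replicate 2 at 24 h it was -6.98. The groups lay far apart, and the fed libraries, killed at the same clock hour as the 24 h libraries, held 0.207, 0.118 and 0.195 CPM. Arntl, the gene of BMAL1, went from 31.0, 34.6 and 28.0 CPM to 6.17, 2.83 and 7.27 CPM, a log2 change of -2.54 ± 0.36 (edgeR adjusted p = 0.000725). Its level at 24 h lay near the fed level of 3.21, 4.41 and 6.85 CPM. Clock itself was not called, at a log2 fold change of -0.85 (edgeR adjusted p = 0.213).

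Dbp, a transcription factor of the PAR bZIP family that carries the rhythm to metabolic genes, was nearly silent at 8 h with 0.492, 1.26 and 0.116 CPM. It reached 18.6, 63.5 and 25.7 CPM at 24 h, with a log2 fold change of 5.91 ± 0.63 (edgeR adjusted p = 0.000142). Every library at 24 h was far above every library at 8 h, although the size depended on single libraries and ranged from 5.21 without replicate 2 at 24 h to 6.86 without replicate 2 at 8 h. The related factor Tef went from 29.1, 63.3 and 45.6 CPM to 139, 208 and 174 CPM (1.92 ± 0.24 on the log2 scale, edgeR adjusted p = 0.000239). Hlf, the other member of that family, rose less, by 0.69 ± 0.13 on the log2 scale (edgeR adjusted p = 0.00486).

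The Period genes encode the main repressors of the loop, and all of them rose. Per2 went from 3.77, 6.14 and 3.40 CPM to 22.9, 23.6 and 21.5 CPM, with a log2 fold change of 2.36 ± 0.17 (edgeR adjusted p = 1.71e-06). Per3 went from 1.48, 2.98 and 3.25 CPM to 18.6, 31.9 and 16.8 CPM, with a log2 fold change of 3.13 ± 0.28 (edgeR adjusted p = 1.17e-05). For Per1 the level went from 18.8, 19.6 and 19.3 CPM to 46.9, 36.9 and 42.9 CPM, a log2 fold change of 1.13 ± 0.17 (edgeR adjusted p = 0.000713). The 3 genes differed in their relation to the fed state. The fed libraries held 72.0, 65.1 and 69.0 CPM of Per2, well above both fasting times, and 28.1, 25.1 and 24.6 CPM of Per3, which the 24 h libraries overlapped. Per1 in the fed libraries was at 32.2, 17.8 and 26.4 CPM, overlapping the 8 h libraries.

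Ciart, a repressor of the loop, went from 0.778, 1.58 and 1.39 CPM to 13.8, 14.2 and 9.59 CPM (3.33 ± 0.59 on the log2 scale, edgeR adjusted p = 0.0036). Nr1d2, a nuclear receptor (REV-ERBβ) that represses Arntl, went from 13.6, 20.9 and 22.8 CPM to 62.8, 88.6 and 84.6 CPM (2.04 ± 0.20, edgeR adjusted p = 3.46e-05). In both genes the 24 h libraries lay above all 8 h libraries. The paralog of Nr1d2, Nr1d1 (REV-ERBα), was called at 1.31 ± 0.38 (edgeR adjusted p = 0.0428), but its libraries overlapped and the call was lost under 8 of 14 alternative settings, among them leaving out replicate 1 or 2 at 8 h or replicate 2 or 3 at 24 h (log2 fold change 0.86 without replicate 2 at 24 h, adjusted p 0.00502 to 0.196 over all alternatives). Cry2, another repressor, was called at 0.60 ± 0.17 (edgeR adjusted p = 0.0345), also with overlapping libraries, and lost its call under 5 alternatives, among them the omission of replicate 1 or 3 at 8 h or of replicate 2 or 3 at 24 h (log2 fold change 0.38 without replicate 2 at 24 h, adjusted p 0.0117 to 0.184). The 7 members not called, among them Clock, Cry1, Nfil3, Rora, Bhlhe40 and Bhlhe41, had log2 fold changes between -0.85 and 0.51.

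Further genes known to follow the clock were among those called. Wee1, a kinase that holds back entry into mitosis, went from 2.01, 4.23 and 3.60 CPM to 14.1, 31.2 and 21.1 CPM (2.76 ± 0.30 on the log2 scale, edgeR adjusted p = 7.99e-05). Nampt, the rate-limiting enzyme of NAD salvage, went from 29.4, 49.5 and 65.1 CPM to 164, 189.9 and 181 CPM (1.89 ± 0.22, edgeR adjusted p = 0.000119). Noct, a phosphatase of NADP(H), rose by 1.02 ± 0.20 (edgeR adjusted p = 0.00506). Nampt and Noct were picked after their values had been seen.

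**Figure D2:**
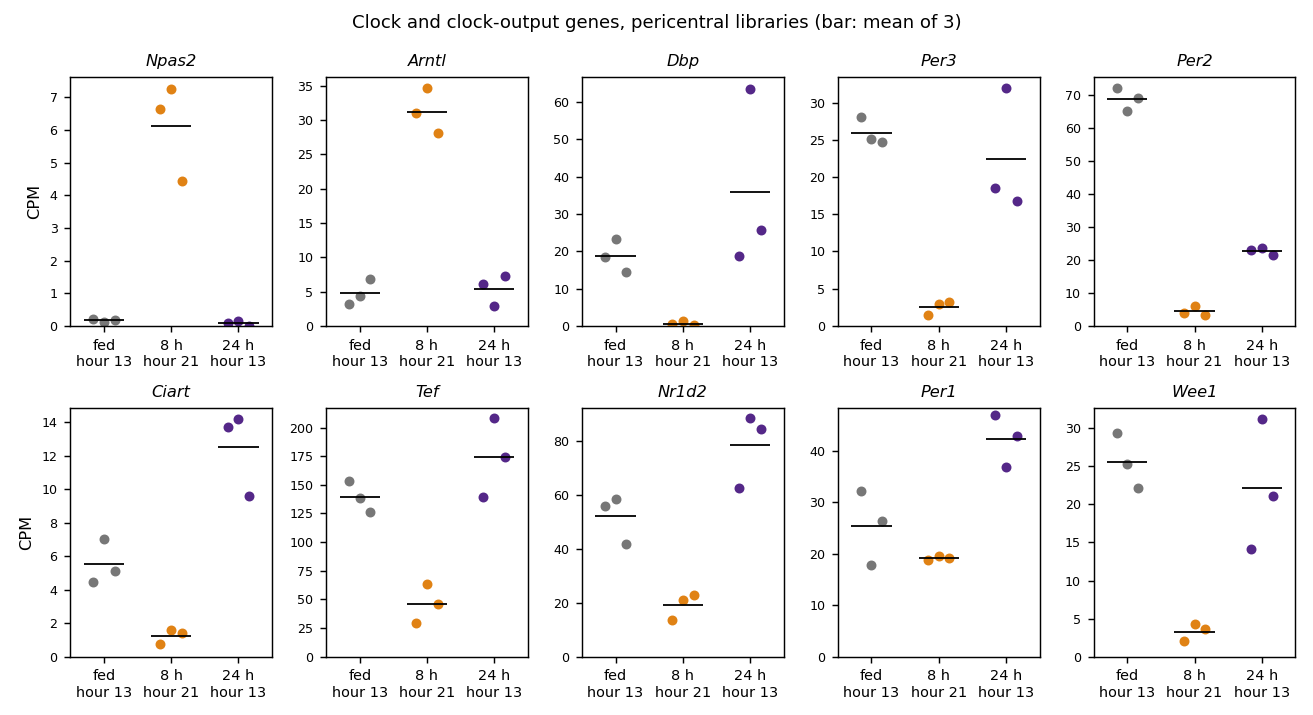
Levels of 10 clock genes in pericentral hepatocytes (vertical axis, CPM, a linear scale for each gene) in the fed, 8 h and 24 h groups, with a point for each of 3 libraries and a bar at the mean. Arntl and Npas2 are high at 8 h and low in the fed and 24 h groups, which share a clock hour, and Dbp and Per3 show the reverse. Per2 is also lowest at 8 h, but its 24 h libraries lie well below the fed ones.

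Promoters are shown because clock genes were among the largest changes in both directions. Known clock elements are the E-box, bound by BMAL1 with CLOCK or NPAS2, the D-box, bound by DBP, TEF and HLF, the cAMP response element, and the ROR element, bound by the REV-ERB and ROR receptors. Exact copies of CACGTG (E-box), TTANGTAA (D-box), TGACGTCA (cAMP response element) and TAGGTCA (core of the ROR element) were searched on both strands in the 250 bases before each annotated start in the RefSeq table of promoters (GRCm38.p6). The table held 21 windows for 16 of the 19 genes, of which 9 were called higher, 2 lower and 5 not called. The upstream part of each of the 4 windows below is given 5′ to 3′ on the gene's strand, in lower case, with the matched letters in capitals. Per1 and Ciart hold the E-box, Per3 the D-box and Hlf the cAMP response element.
Per1, chr11:69098699-69098948 (+): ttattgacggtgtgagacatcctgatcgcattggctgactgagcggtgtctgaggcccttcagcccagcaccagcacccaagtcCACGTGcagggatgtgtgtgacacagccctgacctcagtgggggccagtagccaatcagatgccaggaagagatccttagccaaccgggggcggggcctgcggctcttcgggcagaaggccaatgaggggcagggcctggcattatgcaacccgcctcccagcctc
Ciart, chr3:95882229-95882478 (-): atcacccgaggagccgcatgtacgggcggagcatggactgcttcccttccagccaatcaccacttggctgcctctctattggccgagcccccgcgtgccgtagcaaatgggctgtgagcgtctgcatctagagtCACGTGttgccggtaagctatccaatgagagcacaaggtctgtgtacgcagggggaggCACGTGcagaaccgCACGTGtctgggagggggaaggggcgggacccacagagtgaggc
Per3, chr4:151044666-151044915 (-): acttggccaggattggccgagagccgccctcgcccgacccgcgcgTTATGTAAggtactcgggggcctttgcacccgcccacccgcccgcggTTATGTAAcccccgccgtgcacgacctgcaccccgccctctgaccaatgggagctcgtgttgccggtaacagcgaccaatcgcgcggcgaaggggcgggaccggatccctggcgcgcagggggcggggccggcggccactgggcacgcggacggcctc
Hlf, chr11:90390918-90391167 (-): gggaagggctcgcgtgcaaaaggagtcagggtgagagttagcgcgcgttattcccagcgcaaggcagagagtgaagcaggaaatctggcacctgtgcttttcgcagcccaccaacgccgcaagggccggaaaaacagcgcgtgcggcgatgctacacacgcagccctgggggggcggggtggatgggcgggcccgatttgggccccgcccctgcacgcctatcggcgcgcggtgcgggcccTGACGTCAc
Ciart carried 3 exact E-boxes in its window and Per3 carried 2 exact D-boxes. Of the 9 genes with a window that were called higher, 3 held an E-box (Per1, Ciart and Tef), 1 a D-box, 1 a cAMP response element and 0 the ROR element core. Counted by window, 4 of their 11 windows held an E-box. Of all 32851 windows in the table, searched over the same 250 bases, 6.02% held this E-box, 2.06% the D-box, 1.55% the cAMP response element and 2.23% the ROR element core. Neither of the 2 genes called lower, Arntl and Npas2, held an exact match of any of these letters in this window. Among the 5 genes with a window that were not called, 2 held an E-box and 1 the ROR element core. A match is a description of the letters and no evidence of binding, and sites farther from the start or in introns were not searched.

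Calls among genes of fatty acid oxidation and ketogenesis were increases. Of 27 members 13 were called higher and 0 lower, 48.1% of the list against 9.71% of all genes tested. The median log2 fold change was 0.55. An unadjusted p under 0.05 in edgeR was reached by 20 members above 0 and by 0 below, and DESeq2 and limma-voom also called 0 members lower. All but 1 of the 27 log2 fold changes were above 0. Without replicate 1 at 8 h the number called was 7, and without each of the other libraries it was 10 to 15.

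Ppara, the nuclear receptor that drives this programme, went from 76.4, 93.5 and 109.8 CPM to 187, 214 and 180.4 CPM, a log2 fold change of 1.06 ± 0.15 (edgeR adjusted p = 0.000573). Cpt1a, the enzyme that commits fatty acids to entry into mitochondria, went from 377, 344 and 366 CPM to 732, 720.5 and 582 CPM (0.90 ± 0.15, edgeR adjusted p = 0.0014). The fed libraries held 216, 285 and 264 CPM, below every library of either fasting time. Slc25a20, the carrier that moves acylcarnitines across the inner membrane, rose from 101, 122 and 157 CPM to 201, 191 and 194 CPM (0.62 ± 0.13, edgeR adjusted p = 0.00733). Slc22a5, the plasma membrane carnitine transporter, picked after its values had been seen, rose from 25.9, 30.2 and 44.9 CPM to 95.4, 73.3 and 96.6 CPM (1.39 ± 0.22, edgeR adjusted p = 0.00119).

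Enzymes of the β-oxidation spiral were among those called. Acadm, for medium chains, went from 240.3, 329 and 391 CPM to 577, 583 and 579 CPM (0.86 ± 0.16, edgeR adjusted p = 0.00379). Acadl, for long chains, went from 124, 152 and 169 CPM to 241, 251 and 225 CPM (0.69 ± 0.14, edgeR adjusted p = 0.00594). The peroxisomal thiolase Acaa1a went from 129, 129 and 139.8 CPM to 241, 234 and 230.1 CPM (0.83 ± 0.14, edgeR adjusted p = 0.00152). In these 3 genes no library at 8 h reached the level of any library at 24 h, and the same was true of Decr2, the peroxisomal dienoyl-CoA reductase (0.77 ± 0.16, edgeR adjusted p = 0.00831). The subunits of the mitochondrial trifunctional protein, Hadha (0.63 ± 0.14) and Hadhb (0.68 ± 0.15), and Hadh (0.49 ± 0.11) were called as well, but each lost its call without replicate 1 at 8 h. The adjusted p-values without that library were 0.052, 0.0558 and 0.0604, the highest over all alternatives, whose lowest were 0.000136, 0.000243 and 0.000141. The last 3 called members, Decr1, Acadvl and Eci2, had log2 fold changes of 0.66, 0.40 and 0.67, and all lost their calls without replicate 1 at 8 h or replicate 2 at 24 h, Acadvl and Eci2 without other libraries too.

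Bdh1, which makes 3-hydroxybutyrate, stood at 0.29 ± 0.25 (edgeR adjusted p = 0.519) and was not called. Pdk4, the kinase that shuts pyruvate dehydrogenase, held 8.28, 17.5 and 16.8 CPM at 8 h and then 28.9, 10.3 and 58.9 CPM, with overlapping libraries and no call (1.20 ± 0.66, edgeR adjusted p = 0.289).

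Among 19 genes of ω-oxidation, acyl-CoA hydrolysis and other known PPARα targets, 6 were called higher and 0 lower. This was 31.6% of the list against 9.71% of all genes tested, with a median log2 fold change of 0.67. The edgeR test gave an unadjusted p under 0.05 for 11 members above 0 and 0 below, and DESeq2 and limma-voom called 0 lower. Acot3, a peroxisomal acyl-CoA thioesterase, went from 2.87, 4.09 and 15.7 CPM to 102, 198 and 184 CPM, a log2 fold change of 4.40 ± 0.61 (edgeR adjusted p = 0.000846), or 5.52 without replicate 3 at 8 h. The fed libraries held 33.8, 26.6 and 19.5 CPM, above all 8 h libraries and below all 24 h libraries. Its neighbour Acot4 went from 48.7, 42.3 and 79.5 CPM to 174, 219 and 264 CPM (1.94 ± 0.25, edgeR adjusted p = 0.000391). Acot1 to Acot4 lie side by side on chromosome 12 and are closely alike in sequence, so how the reads were shared among them is uncertain. The other 4 calls were Acot2 (1.77), Crat (0.90), Ech1 (0.67) and Pex11a (0.65). None of these 4 held without replicate 1 or 2 at 8 h or replicate 1 or 3 at 24 h, where 2 members were called. The classical targets Cyp4a10 and Cyp4a14, fatty acid ω-hydroxylases, were not called. Cyp4a14 held 413, 973 and 2214 CPM at 8 h and then 3237, 4025 and 4755 CPM, without overlap, with a log2 fold change of 1.74 ± 0.67 (edgeR adjusted p = 0.125). Cyp4a10 was at 164, 534 and 756 CPM and 1720, 1576 and 2299 CPM (1.94 ± 0.72, edgeR adjusted p = 0.11). In both genes the 3 libraries at 8 h differed widely among themselves.

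Of 18 genes of lipid droplets and lipolysis, 4 were called higher and 0 lower by edgeR. This was 22.2% of the list against 9.71% of all genes tested. At an unadjusted p under 0.05 in edgeR there was 1 below 0. DESeq2 called 1 lower and limma-voom 0. The 4 called higher were the triglyceride lipase Pnpla2 (0.57 ± 0.14), the phosphatidate phosphatase Lpin2 (0.81 ± 0.22), the monoglyceride lipase Mgll (0.82 ± 0.19) and the carboxylesterase Ces1d (0.89 ± 0.21). None held under every alternative. A single call was left without replicate 1 or 2 at 8 h, and 2 without any one of the 24 h libraries. The droplet coat genes Plin2 and Plin5 were at 0.16 and -0.03 on the log2 scale and were not called.

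Genes of glycolysis and lipogenesis were called mostly in the other direction. Of 22 members, 8 fell and 2 rose, 45.5% of the list against 9.71% of all genes tested. The median log2 fold change was -0.91. The number called lower was 5 without replicate 2 at 8 h and 5 without replicate 2 at 24 h. Pklr, the liver pyruvate kinase and last step of glycolysis, went from 390.4, 790.3 and 582 CPM to 90.7, 119 and 87.7 CPM, a log2 change of -2.57 ± 0.34 (edgeR adjusted p = 0.000509). The fed libraries were at 1280, 715 and 999 CPM, with a log2 change of -0.76 between the fed and the 8 h groups and -3.33 between the fed and the 24 h groups. Pklr lies at chr3:89136142-89146784 (+) in GRCm38, and its end overlaps the end of Hcn3, on the other strand at chr3:89146074-89160196 (-). Hcn3 was also called lower (-2.94 ± 0.54, edgeR adjusted p = 0.00545), and since no strand was stated for the counting, reads of the overlap cannot be assigned between them.

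Tkfc, which phosphorylates glyceraldehyde from fructose, went from 497, 665 and 516 CPM to 118, 144 and 127 CPM (-2.11 ± 0.22, edgeR adjusted p = 3.46e-05). Acacb, the acetyl-CoA carboxylase whose product blocks CPT1, went from 176, 330.1 and 268 CPM to 44.1, 25.8 and 40.7 CPM (-2.81 ± 0.49, edgeR adjusted p = 0.0037). Me1, the malic enzyme that supplies NADPH, went from 296, 622 and 622 CPM to 137, 154 and 158 CPM (-1.78 ± 0.34, edgeR adjusted p = 0.00534). Elovl5, an elongase of polyunsaturated fatty acids, went from 422, 489 and 459.8 CPM to 203, 198 and 196 CPM (-1.20 ± 0.21, edgeR adjusted p = 0.0021). In these 4 genes every 24 h library lay below every 8 h library. Mlxipl, the gene of the sugar-sensing factor ChREBP whose known targets include Pklr and Tkfc, was at 139.7, 179 and 158 CPM and then 85.3, 85.0 and 79.4 CPM. Its call (-0.93 ± 0.25, edgeR adjusted p = 0.0295) was lost without any one of the 6 libraries (log2 change -1.03 to -0.86 and adjusted p 0.00256 to 0.109 over the alternatives). Pfkfb1 (-1.50 ± 0.35), the liver enzyme that sets fructose-2,6-bisphosphate, and the fructokinase Khk (-0.86 ± 0.24) were called too, and both lost their calls without replicate 2 at 8 h or replicate 2 at 24 h, Pfkfb1 also without replicate 3 at 24 h and Khk also without replicate 1 or 3 at 8 h or 1 at 24 h.

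The 2 members that rose act in glycerolipid synthesis and in the desaturation of fatty acids. Gpam, which starts glycerolipid synthesis, went from 1.35, 0.372 and 1.78 CPM to 10.6, 5.77 and 8.85 CPM (2.82 ± 0.57, edgeR adjusted p = 0.0068). Fads2, the Δ6 desaturase, went from 258, 371 and 334 CPM to 602, 636 and 547 CPM (0.89 ± 0.14, edgeR adjusted p = 0.00105).

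Fasn, fatty acid synthase, started at 1734, 864 and 1211 CPM in the fed group. It stood at 52.0, 61.4 and 41.4 CPM after 8 h and 18.6, 23.2 and 27.2 CPM after 24 h. Its log2 change from 8 h to 24 h of -1.16 ± 0.39 was not called (edgeR adjusted p = 0.0773, 0.0179 to 0.191 over the alternatives), although the libraries did not overlap, and the change from fed to 8 h was -4.62. Scd1, the stearoyl-CoA desaturase, was at 9044, 12640 and 11000 CPM and 3636, 5211 and 8735 CPM (-0.89 ± 0.53, edgeR adjusted p = 0.326) and was not called. The comparisons with the fed group share the 8 h or the 24 h libraries with the main comparison, so these values are set side by side only.

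**Figure D3:**
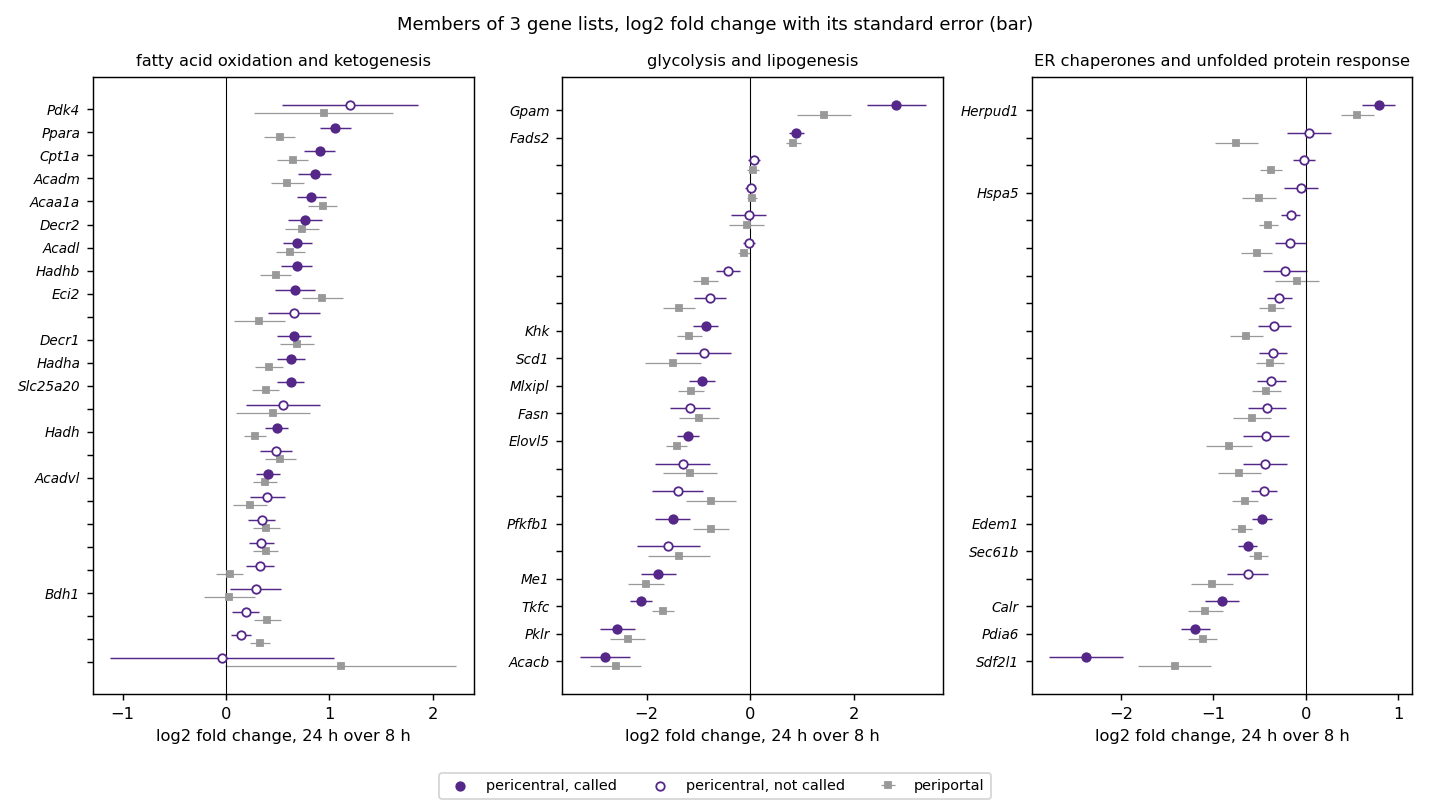
Log2 fold change from 8 h to 24 h (horizontal axis) for members of 3 gene lists, fatty acid oxidation and ketogenesis, glycolysis and lipogenesis, and ER chaperones. Circles with SE bars are pericentral hepatocytes, filled where called at an adjusted p under 0.05, and grey squares are periportal hepatocytes. Names are given for members described in the text. Of the members drawn, those of the first list lie to the right of 0 with 1 exception, and most members of the other lists lie to the left.

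Glycogen genes held one of the largest increases. Ppp1r3g, a subunit that directs protein phosphatase 1 to glycogen (chr13:35958839-35970388 (+) in GRCm38), had 0.532, 0 and 0 CPM at 8 h, from 13, 0 and 0 estimated counts. It had 7.82, 11.5 and 22.5 CPM at 24 h, from 200, 312 and 456 estimated counts. The fitted log2 fold change was 6.23 ± 1.15 (edgeR adjusted p = 0.00526), a size that rests on the few counts of replicate 1 at 8 h. The fed libraries held 0, 0.473 and 0 CPM. Gys2, liver glycogen synthase, went from 105, 151 and 132 CPM to 193, 332 and 255 CPM (1.01 ± 0.19, edgeR adjusted p = 0.00441), while Pygl, liver glycogen phosphorylase, went from 448, 688 and 582 CPM to 232, 264 and 245 CPM (-1.21 ± 0.18, edgeR adjusted p = 0.000751). The synthase was thus higher and the phosphorylase lower at the longer fast, with no overlap of libraries in these 3 genes. Another phosphatase subunit, Ppp1r3c, went from 109.6, 110.2 and 114 CPM to 42.5, 26.6 and 16.3 CPM (-1.96 ± 0.42, edgeR adjusted p = 0.0118), and its adjusted p was 0.0531 without replicate 3 at 24 h (0.00016 to 0.0531 over the alternatives).

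These genes belonged to a list of 24 members of insulin and FOXO signalling and glycogen control, in which 5 rose and 2 fell. This was 29.2% of the list against 9.71% of all genes tested, and the median log2 fold change was 0.27. Igf1, the growth factor secreted by hepatocytes, went from 266, 241 and 328 CPM to 471, 560.1 and 479.6 CPM (0.86 ± 0.15, edgeR adjusted p = 0.00278). Foxo1, the factor that insulin keeps out of the nucleus, was called at 0.67 ± 0.17 (edgeR adjusted p = 0.0202) and lost its call without replicate 1 or 3 at 8 h or replicate 1 or 3 at 24 h (0.00369 to 0.0831 over the alternatives). Foxo3 was called at 0.56 ± 0.16 and held its call only without replicate 2 at 24 h among the fits that left out a library. Igfbp1, a target of FOXO1, was at 235, 200.2 and 107 CPM and 348, 87.1 and 421 CPM and was not called (0.66 ± 0.69, edgeR adjusted p = 0.612). The insulin receptor substrate Irs2 stood at -0.11 on the log2 scale and was not called.

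Gluconeogenesis is the subject in the title of the series. Of 20 members 3 were called higher and 1 lower, 20% of the list against 9.71% of all genes tested, and the median log2 fold change was 0.10. Gk, glycerol kinase, through which glycerol enters glucose synthesis, was the only call that held when any library was left out. It went from 82.2, 91.7 and 113 CPM to 159, 194 and 192 CPM (0.92 ± 0.17, edgeR adjusted p = 0.00321). Ppargc1a, the coactivator PGC-1α, went from 8.97, 8.98 and 8.51 CPM to 18.4, 12.6 and 21.0 CPM (0.97 ± 0.24, edgeR adjusted p = 0.0169), but held its call only without replicate 2 at 24 h among the fits that left out a library (adjusted p 0.00146 to 0.084 over the alternatives). The alanine aminotransferase Gpt (0.65 ± 0.20, with 0.57 to 0.68 over the alternatives) lost its call without any one of the 6 libraries. Enolase, Eno1 (-0.53 ± 0.14), lost it without replicate 2 or 3 at 8 h or replicate 1 or 3 at 24 h.

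The rate-limiting gene Pck1 held 2200, 2331 and 1827 CPM at 8 h and then 4791, 4844 and 4825 CPM. The libraries did not overlap, but the log2 difference of 1.19 ± 0.46 was not called (edgeR adjusted p = 0.129, 0.00736 to 0.266 over the alternatives, with a call under 1 of them). The fed libraries held 75.7, 276 and 157 CPM, and the log2 fold change from the fed level was 3.64 at 8 h and 4.83 at 24 h. G6pc, glucose-6-phosphatase, was at 266, 530.3 and 443 CPM and 726, 438 and 687 CPM with overlap (0.58 ± 0.34, edgeR adjusted p = 0.323). Fbp1 and Pcx were at 0.25 and 0.22 on the log2 scale, and none of these 4 genes was called.

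Amino acid breakdown held 6 increases and 2 decreases among 32 members, 25% of the list against 9.71% of all genes tested. The median log2 fold change was 0.31. Without replicate 2 or 3 at 8 h, or replicate 2 at 24 h, 3 were called higher. Sds, serine dehydratase, which turns serine into pyruvate, went from 22.8, 32.7 and 33.6 CPM to 101, 215 and 94.8 CPM (2.20 ± 0.43, edgeR adjusted p = 0.00667). Gls2, liver glutaminase, went from 96.3, 119 and 109.9 CPM to 180, 319.5 and 194 CPM (1.09 ± 0.19, edgeR adjusted p = 0.00212). Hal, histidase, went from 157, 116 and 133 CPM to 243, 466 and 196 CPM (1.16 ± 0.25, edgeR adjusted p = 0.00995). In all 3 genes the highest value was in replicate 2 at 24 h, the library low in Glul. Without it the log2 fold changes were 1.72, 0.79 and 0.70, and all 3 were still called, whereas Hal lost its call without replicate 2 at 8 h (adjusted p = 0.0522, 9.83e-05 to 0.101 over the alternatives). The periportal libraries at 24 h held 689 to 1010 CPM of Sds. The part of the zone of origin of the cells in these values was not tested. The remaining increases, Uroc1 (0.52, and 0.33 without replicate 2 at 24 h), Sdsl (1.33) and Bckdha (0.32), lost their calls without replicate 2 or 3 at 8 h or replicate 2 at 24 h, and some without other libraries too.

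Cbs, which channels homocysteine into cysteine, fell from 386, 319 and 334 CPM to 212, 204 and 196 CPM (-0.76 ± 0.13, edgeR adjusted p = 0.00184). Kynu, kynureninase of tryptophan breakdown, was also called lower (-0.76 ± 0.17), with an adjusted p of 0.0501 without replicate 2 at 8 h (0.000573 to 0.0501 over the alternatives). Slc7a2, a transporter of arginine and lysine, was among the called genes without overlap of libraries whose mean CPM rose most. It went from 376, 438 and 418 CPM to 1091, 1280 and 1160 CPM (1.52 ± 0.21, edgeR adjusted p = 0.000515). Of 8 urea cycle genes, 2 were called higher, 25% of the list against 9.71% of all genes tested. Slc25a13, the aspartate and glutamate carrier citrin, went from 159.6, 182 and 211 CPM to 286, 345 and 306 CPM (0.76 ± 0.12, edgeR adjusted p = 0.00119). Asl (0.81 ± 0.21) lost its call without replicate 1 or 3 at 8 h or replicate 1 or 3 at 24 h. Cps1, Otc, Ass1 and Arg1 lay between 0.12 and 0.38 and were not called.

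Of 21 chaperones and unfolded protein response genes of the endoplasmic reticulum, 5 fell, 1 rose and 15 were not called. The share called was 28.6% against 9.71% of all genes tested, and the median log2 fold change was -0.37. Pdia6, a protein disulfide isomerase, went from 328, 379 and 289 CPM to 139, 166 and 128 CPM (-1.20 ± 0.16, edgeR adjusted p = 0.000328). Sdf2l1, a partner of the chaperone BiP, went from 44.4, 39.3 and 27.3 CPM to 10.5, 6.29 and 4.40 CPM (-2.38 ± 0.40, edgeR adjusted p = 0.0029). Calreticulin, Calr, went from 835, 684 and 564 CPM to 374, 398 and 339.5 CPM (-0.91 ± 0.19, edgeR adjusted p = 0.00669). No library at 24 h reached the 8 h range in these genes, and the same held for Sec61b, a subunit of the translocon (-0.63 ± 0.10, edgeR adjusted p = 0.00151). The fifth, Edem1 (-0.48 ± 0.11), lost its call without replicate 1 at 8 h or replicate 2 at 24 h, and Herpud1, the one that rose (0.79 ± 0.18), lost it without replicate 2 at 8 h or replicate 3 at 24 h. Hspa5, the gene of BiP, was at 549.7, 436 and 387 CPM and 427, 470 and 425 CPM and was not called (-0.05 ± 0.18, edgeR adjusted p = 0.899).

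In the cytosol 4 of 18 heat shock genes were called higher and 0 lower by edgeR, 22.2% against 9.71% of all genes tested. There were 0 below 0 at an unadjusted p under 0.05 in edgeR and 0 called lower by DESeq2 or limma-voom. Hspa8, the constitutive HSC70, went from 621, 802 and 617 CPM to 1426, 1212 and 1628 CPM (1.06 ± 0.22, edgeR adjusted p = 0.0068) and was the only one whose call held without each library. Its co-chaperones Dnaja1 (0.77 ± 0.18) and Dnajb1 (0.80 ± 0.24) and the S100-binding protein gene Cacybp (0.47 ± 0.14, and 0.31 without replicate 1 at 8 h) lost theirs without replicate 1 or 2 at 8 h or replicate 3 at 24 h, among other settings. Rbm3, an RNA-binding protein induced by cold and picked after its values had been seen, went from 37.5, 34.0 and 31.6 CPM to 63.4, 72.1 and 88.4 CPM (1.12 ± 0.13, edgeR adjusted p = 0.000134).

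Bile acid genes were divided. Abcb11, the bile salt export pump, went from 676, 673 and 822 CPM to 324, 313 and 344 CPM (-1.15 ± 0.16, edgeR adjusted p = 0.000509). Hsd3b7, an early enzyme of bile acid synthesis, went from 496, 446 and 465 CPM to 286, 177 and 212 CPM (-1.06 ± 0.18, edgeR adjusted p = 0.00195). These were the 2 members of 16 that fell, and with 2 that rose 25% of the list was called, against 9.71% of all genes tested. The 2 that rose, Akr1d1 (0.65 ± 0.17) and the sterol exporter subunit Abcg5 (0.92 ± 0.25), lost their calls without replicate 1 at 8 h or replicate 3 at 24 h, Abcg5 also without replicate 2 at 8 h or replicate 1 or 2 at 24 h. Cyp7a1, the rate-limiting enzyme, was at 210.2, 370.1 and 179.7 CPM and 491, 282 and 213 CPM with wide overlap and was not called (0.38 ± 0.69, edgeR adjusted p = 0.794).

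Of 25 genes of cholesterol synthesis and uptake, 2 were called higher and 0 lower by edgeR. This was 8% of the list, near the 9.71% of all genes tested. At an unadjusted p under 0.05 in edgeR there were 3 below 0. DESeq2 called 2 lower and limma-voom 0, and the median was 0.00. Squalene synthase, Fdft1, went from 30.3, 27.8 and 35.6 CPM to 47.5, 77.7 and 72.3 CPM (1.07 ± 0.23, edgeR adjusted p = 0.0102). Hsd17b7 (0.63 ± 0.15) lost its call without replicate 1 or 2 at 8 h or replicate 3 at 24 h.

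Autophagy held 5 increases and 1 decrease among 24 members, 25% of the list against 9.71% of all genes tested. Bnip3, a receptor for the removal of mitochondria, went from 122, 158 and 196 CPM to 353, 412 and 465 CPM (1.37 ± 0.15, edgeR adjusted p = 7.99e-05), and its call held under all 14 alternatives. The other calls did not hold when single libraries were left out, and the number called higher was 1 without replicate 3 at 24 h, 2 without replicate 1 at 8 h and 3 without replicate 2 at 8 h or replicate 1 at 24 h. The ubiquitin-like proteins of the autophagosome among them were Gabarapl1 (0.65 ± 0.17), Map1lc3a (0.46 ± 0.13) and Map1lc3b (0.36 ± 0.09).

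Of 17 glucocorticoid response genes 1 rose and 1 fell, 11.8% of the list, which is near the 9.71% of all genes tested. The first was Por, the reductase that supplies electrons to cytochromes P450, which went from 559, 683 and 758 CPM to 1760, 1136 and 1619 CPM (1.17 ± 0.24, edgeR adjusted p = 0.00721). The other was the cell cycle inhibitor Cdkn1a, at 90.1, 75.0 and 90.8 CPM and then 29.9, 2.17 and 18.9 CPM (-2.33 ± 0.65, edgeR adjusted p = 0.0379). This call was lost without replicate 1, 2 or 3 at 8 h or replicate 3 at 24 h (adjusted p 0.00729 to 0.198 over the alternatives), and the log2 change was -3.06 without replicate 1 at 24 h. Of 21 genes of ATF4 and amino acid stress 0 were called higher by edgeR, DESeq2 or limma-voom, with 3 at an unadjusted p under 0.05, and the fasting hormone Fgf21 was at 0.52 (edgeR adjusted p = 0.74). The 1 member called lower, 4.76% of the list against 9.71% of all genes tested, was Mthfd2 (-1.83 ± 0.42). This gene of a mitochondrial folate enzyme lost its call without replicate 2 at 24 h.

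Outside the lists, genes were named when they were among the 10 with the largest called change in each direction, if the higher group averaged 10 CPM or more and the libraries did not overlap. Slc30a10, a manganese exporter, fell from 67.3, 60.8 and 63.0 CPM to 8.36, 10 and 7.56 CPM (-2.88 ± 0.24, edgeR adjusted p = 9.44e-06), and the groups were tight and far apart. Cyp2c55, a cytochrome P450, went from 11.7, 9.81 and 14.3 CPM to 2.54, 1.40 and 2.87 CPM (-2.41 ± 0.41, edgeR adjusted p = 0.00233). For Fmo2, a flavin monooxygenase that oxidises xenobiotics, the libraries held 9.26, 14.5 and 28.5 CPM and then 87.2, 84.0 and 197 CPM (2.81 ± 0.58, edgeR adjusted p = 0.00968). The adjusted p of Fmo2 reached 0.0612 when the fit held only the 6 libraries compared, the highest over its alternatives. Dsg1c, a desmosomal cadherin, went from 3.93, 3.53 and 3.48 CPM to 8.67, 41.2 and 31.5 CPM (2.89 ± 0.43, edgeR adjusted p = 0.00119) and was likewise lost in that fit. Aqp8, a water channel (-2.39 ± 0.53, edgeR adjusted p = 0.0134), lost its call in that fit and without replicate 3 at 24 h. The fatty acid elongase Elovl3, at 250, 379 and 384 CPM and then 92.1, 13.1 and 49.9 CPM (-2.71 ± 0.70, edgeR adjusted p = 0.0274), lost its call under 7 alternatives and held it, among the fits without a library, only without replicate 1 at 24 h. Fabp5, a fatty acid binding protein, went from 29.2, 17.3 and 5.99 CPM to 2.42, 0.919 and 1.78 CPM (-3.36 ± 0.83, edgeR adjusted p = 0.0228) and lost its call without replicate 1 or 2 at 8 h or replicate 2 or 3 at 24 h. The transcription factor gene Pitx3 (-3.02 ± 0.81, edgeR adjusted p = 0.0333) lost it without any 8 h library or replicate 2 or 3 at 24 h, and its change was -4.38 without replicate 1 at 24 h. Pitx3 lies at chr19:46135685-46148326 (-) in GRCm38 and its end meets the end of Elovl3, on the other strand at chr19:46131897-46135694 (+). The annotated overlap is only the few bases from 46135685 to 46135694. Pitx3 was at 27.1, 37.5 and 38.2 CPM and then 9.18, 0.294 and 3.21 CPM, the same order of libraries as in Elovl3, so the decreases of this pair are not shown to be separate.

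Rnf144a, an E3 ubiquitin ligase picked after its values had been seen, went from 9.50, 7.53 and 4.91 CPM to 0.274, 0.257 and 0.198 CPM (-4.87 ± 0.44, edgeR adjusted p = 9.44e-06), and was at 0.0691, 0.197 and 0.273 CPM in the fed libraries. The called genes without overlap of libraries whose mean CPM changed most included Ahcy, Apoa5, Fga and Fgg. Ahcy, which clears S-adenosylhomocysteine, went from 2571, 3381 and 2798 CPM to 4514, 4655 and 5652 CPM (0.76 ± 0.17, edgeR adjusted p = 0.00911), a call lost without replicate 1 at 8 h or replicate 3 at 24 h. Apoa5, which promotes clearance of triglyceride from blood, went from 847, 1492 and 1406 CPM to 1957, 2369 and 2053 CPM (0.77 ± 0.18, edgeR adjusted p = 0.013), a call lost without replicate 2 at 24 h. The fibrinogen chains Fga (-1.27 ± 0.32) and Fgg (-1.18 ± 0.28) were highest in replicate 1 at 8 h. Without that library the changes were smaller, at -0.60 (adjusted p = 0.103, 0.000608 to 0.136 over the alternatives) and -0.63 (adjusted p = 0.0807, 0.000431 to 0.115), and the calls were lost without replicate 1 or 3 at 24 h too.

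Markers of the zone itself were examined for a shift within the pericentral cells. Of 21 pericentral markers 0 were called in either direction by edgeR. At an unadjusted p under 0.05 there were 0 above and 1 below 0, DESeq2 called 0, and limma-voom called 1 lower. The median log2 fold change was -0.11, with 9 of the 21 above 0 and 12 below. The 24 h libraries lay below all 8 h libraries for 7 of the 21 markers and above them for 1, against 14.2% and 14.6% of all genes tested. The summed level of the list was 17300 to 22100 CPM at 8 h and 17600 to 30700 CPM at 24 h, and without Cyp2e1, its most abundant member, 9720 to 13400 CPM and 7280 to 14600 CPM. Glul held 567, 776 and 607 CPM at 8 h and then 928, 111 and 707 CPM, with a log2 difference of -0.16 ± 0.56 that became 0.33 without replicate 2 at 24 h. Cyp2e1, an alcohol- and drug-metabolising P450, was at 7611, 8641 and 8687 CPM and 13000, 10270 and 16060 CPM (0.66 ± 0.53, edgeR adjusted p = 0.489), and was the marker with the 24 h libraries above. Among the 7 below, Cyp2c29, a P450 with close paralogs among which reads may be split, was at 2338, 2634 and 2721 CPM and then 1165, 833 and 1429 CPM (-1.17 ± 0.62, edgeR adjusted p = 0.27). Gulo, the last enzyme of vitamin C synthesis, was at 523, 698 and 544 CPM and then 441, 175 and 384 CPM (-0.82 ± 0.55, edgeR adjusted p = 0.401). Gstm3, a glutathione transferase, was at 36.1, 29.8 and 77.7 CPM and then 21.8, 5.55 and 24.5 CPM (-1.48 ± 0.82, edgeR adjusted p = 0.295). In all 3 the lowest library was replicate 2 at 24 h, and these markers were chosen after their values were seen. Other markers went the other way. The P450 gene Cyp2a5 held 82954 estimated counts over the 8 h group and 194750 over the 24 h group, and was not called. These are sums that are not scaled to library size and do not show the spread between libraries.

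Wnt signals from the central vein set the pericentral programme, and targets and feedback genes of this pathway were listed separately. Of 15 members 2 were called lower and 1 higher, 20% of the list against 9.71% of all genes tested. Lgr5, a receptor that strengthens Wnt signalling, went from 11.7, 9.07 and 7.62 CPM to 4.57, 1.29 and 3.16 CPM (-1.65 ± 0.34, edgeR adjusted p = 0.00678). Without replicate 2 at 24 h it was still called at -1.28 (adjusted p = 0.0165), and with only the 6 libraries in the fit it was not (adjusted p = 0.0673, 0.000332 to 0.0673 over the alternatives). Axin2, a feedback inhibitor, was at 10.4, 15.3 and 14.1 CPM and 7.31, 2.5 and 6.52 CPM and was not called (-1.29 ± 0.42, edgeR adjusted p = 0.0652). The other calls, Sp5 (-1.93 ± 0.56) and Ctnnbip1 (0.98 ± 0.23), were lost without replicate 2 at 24 h, where the values were -1.46 and 0.51, and without replicate 1 or 2 at 8 h, Sp5 also without replicate 3 at 8 h or at 24 h.

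Periportal markers were called higher in 5 of 18 cases and lower in 1, 33.3% of the list against 9.71% of all genes tested. The median log2 fold change was 0.73. Hsd17b13, a lipid droplet protein, went from 75.4, 72.9 and 116 CPM to 155, 441 and 235 CPM (1.65 ± 0.31, edgeR adjusted p = 0.00427), and Etnppl, which degrades phosphoethanolamine, from 35.9, 118 and 131 CPM to 232, 383 and 280.4 CPM (1.66 ± 0.35, edgeR adjusted p = 0.00941). Replicate 2 at 24 h was the highest library for both, as it was for Cryl1 (2.19 ± 0.53). Without it Hsd17b13 was called at 1.14 and Etnppl at 1.43, Cryl1 was no longer called (1.37), and 2 members in all were called higher. The last 2 called, Fgfr2 (1.41, and 0.70 without replicate 2 at 24 h) and Igfals (0.66), lost their calls without replicate 1 or 2 at 8 h or replicate 2 or 3 at 24 h, among other settings. The number called higher was also 2 without replicate 1 or 2 at 8 h and 0 with only the 6 libraries in the fit. The summed level of the periportal list was 12900 to 18500 CPM at 8 h and 13400 to 16500 CPM at 24 h, against 20100 to 28500 CPM in the periportal libraries, and most of it was the transferrin gene Trf. Without Trf the sum was 1480 to 1670 CPM in the shorter fast and then 2230, 3620 and 2020 CPM, highest in replicate 2, against 6270 to 8650 CPM in the periportal libraries. Sox9, a transcription factor of cells near the portal tract and of bile ducts, was the member that fell, from 8.81, 7.91 and 7.89 CPM to 2.77, 4.49 and 2.42 CPM (-1.33 ± 0.20, edgeR adjusted p = 0.000678), and it held its call under all 14 alternatives.

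**Figure D4:**
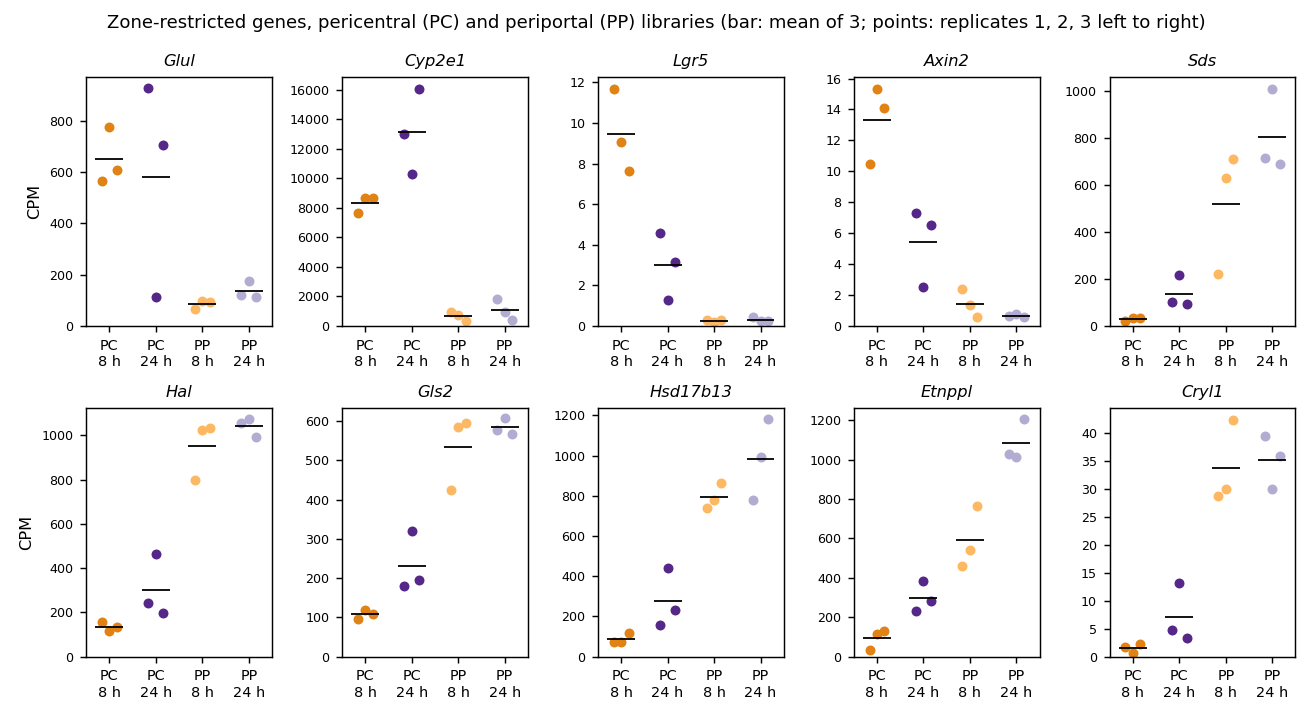
Levels of 10 zone marker and zone-biased genes (vertical axis, CPM, a linear scale for each gene) in pericentral and periportal hepatocytes at 8 h and 24 h, with a point for each library from replicate 1 on the left to replicate 3 on the right and a bar at the mean. In the pericentral group at 24 h the middle point, replicate 2, lies low for Glul and high for Sds, Hal, Gls2, Hsd17b13, Etnppl and Cryl1.

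Markers of endothelial cells, of Kupffer cells and leukocytes and of stellate cells were few in counts. Markers of sinusoidal endothelial cells summed to 7.35 to 11.9 CPM at 8 h and 6.72 to 15.4 CPM at 24 h, and 9 of 11 had a log2 fold change above 0. The 12 markers of Kupffer cells and leukocytes summed to 1.21 to 5.76 CPM at 8 h and 4.06 to 10.2 CPM at 24 h, with 12 of 12 above 0 and a median of 1.39. Adgre1, Lyz2 and Marco were at 0 in at least 1 library at 8 h. Stellate cell and fibroblast markers summed to 1.80 to 3.48 CPM and then 3.24 to 10.2 CPM, with 6 of 6 above 0. None of these 3 lists had a member called by edgeR. DESeq2 called 1 endothelial and 1 stellate marker higher, limma-voom called 0, and an unadjusted p under 0.05 in edgeR was reached by 1, 0 and 1 members. Cholangiocyte markers summed to 24.8 to 32.6 CPM at 8 h and 20.8 to 23.6 CPM at 24 h, with 0 called by edgeR. Red cell and platelet markers summed to 57.2 to 66.7 CPM and then 38.1 to 51.9 CPM, mostly Alas2. Alas2 was called lower (-0.56, edgeR adjusted p = 0.0295) and lost its call without any 8 h library or replicate 2 or 3 at 24 h. The other 4 were above 0. The part of these cells in the results above was not tested.

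The same comparison was available in periportal hepatocytes, where 931 genes (7.46% of those tested) changed, 402 higher (3.22%) and 529 lower (4.24%). Of the 1212 genes called in pericentral cells, 471 were also called in periportal cells, which is 38.9% of the pericentral and 50.6% of the periportal calls. All 471 changed in the same direction, 215 higher and 256 lower. Of the genes that rose in pericentral cells, 94% had a periportal log2 fold change above 0, with a median of 0.34, and of those that fell, 94.3% were below 0 with a median of -0.56. These genes were chosen for their pericentral change, and the share with the same sign over all genes tested was not counted. No label says whether pericentral and periportal libraries of one number came from the same mouse, so the 2 zones may not be independent. Over all 12477 genes tested the log2 fold changes in the 2 zones had a Pearson correlation of 0.298, a description across genes, which are not independent replicates. In periportal cells 8 clock genes were called higher and 2 lower, 9 genes of fatty acid oxidation and ketogenesis higher, 9 of glycolysis and lipogenesis lower and 9 chaperones of the endoplasmic reticulum lower. Periportal log2 fold changes were 3.86 for Dbp, -5.64 for Npas2, 2.55 for Acot3, -2.37 for Pklr and 5.98 for Ppp1r3g.

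The difference between the zones, the pericentral minus the periportal log2 fold change, was tested for every gene in the same fit. No gene was called by edgeR (0% of 12477 genes), and the smallest adjusted p was 0.711. An unadjusted p under 0.05 was reached by 746 genes in edgeR, 762 in limma-voom and 764 in DESeq2, and DESeq2 called 3 genes. The 741 genes called in pericentral cells only are therefore not shown to have changed differently there. The 3 genes with the smallest p in each direction, at a mean of at least 10 CPM in a group, were Dhrs7 (0.81 ± 0.18), Itgb5 (1 ± 0.23), Dsc2 (0.79 ± 0.20), Bcl2l1, Ndrg1 and Unc45a (-0.95 ± 0.24), and none was called (adjusted p = 0.711). Bcl2l1, an inhibitor of cell death, fell from 38.4, 44.8 and 40.5 CPM to 26.8, 27.4 and 25.5 CPM in pericentral cells and was at 27.6, 35.5 and 25.8 CPM and 29.1, 32.8 and 36.5 CPM in periportal cells, a zone difference of -0.78 ± 0.18 on the log2 scale. Ndrg1, known as a gene of low oxygen, fell from 14.0, 15.6 and 12.7 CPM to 2.46, 3.02 and 4.99 CPM in pericentral cells and was at 5.09, 2.67 and 3.96 CPM and 2.40, 3.66 and 3.63 CPM in periportal cells, a zone difference of -1.75 ± 0.43. At 24 h the pericentral libraries of Ndrg1 overlapped the periportal range, whereas at 8 h they lay above it.

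**Figure D5:**
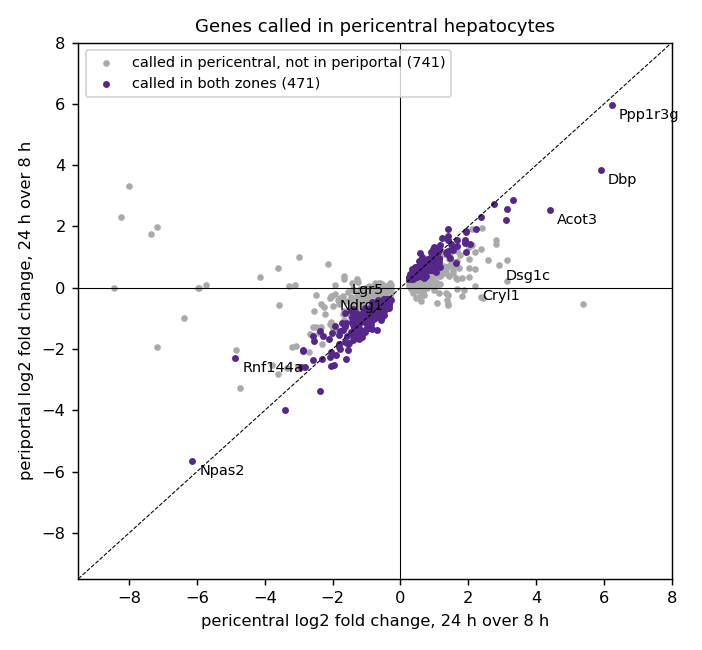
Each point is one of the 1212 genes called in pericentral hepatocytes, placed by its log2 fold change from 8 h to 24 h in pericentral (horizontal axis) and periportal (vertical axis) hepatocytes, with the dashed line at equal change. The 471 genes called in both zones lie at the lower left and the upper right, near the dashed line, and most of the 741 called in pericentral cells only lie there too. The points at the far left with periportal values near or above 0 are mainly keratin genes with counts in replicates 1 and 2 at 8 h.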

How the data were processed

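RNA sequencing libraries of mouse hepatocytes were analysed, 6 groups of 3, of which the pericentral 8 h and 24 h groups form the main comparison. The deposited values are the authors' estimated counts, made with kallisto 0.46.0 on build mm10 per the submitters' processing notes, and these estimated counts were rounded to whole numbers before testing. Whether strand was used is not given in the sources used here. The table held 28030 Ensembl genes, of which 27566 had a symbol in the table of gene names used and 27645 were in GENCODE M21 (GRCm38), the source of gene coordinates. Each group held 3 libraries, which limits the precision of every comparison. No replicates were duplicates, since the chi-square statistic per gene was 38.1 to 122 between replicates of the 2 main groups.

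Tests used edgeR 4.0.16 (quasi-likelihood F test) in R 4.3.3 (TMM scaling, filterByExpr, robust fit), in 1 fit of all 18 libraries with a coefficient for each group, which then share an estimate of the spread. Benjamini-Hochberg adjustment ran over 12477 genes. The SE is the size of the log2 fold change divided by the square root of F. CPM were scaled with the TMM factors and compare libraries, not genes of different length. Simulated counts with known changes were used to test the fit.

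Genes named were the 10 largest non-overlapping called changes in each direction at a mean of at least 10 CPM, the 5 largest changes in mean CPM, called and preset members of gene lists, and the 3 smallest p-values in each direction for the zone difference. The gene lists and members were chosen with earlier results of these data known. The alternatives, 14 for the main comparison, were DESeq2 size factors, no filter beyond 1 count, a mean of at least 1 CPM, a fit of only the groups compared, DESeq2 1.42.0 (Wald test), a replicate block, limma-voom (limma 3.58.1), scaling that omits the 20 genes with most counts and leaving out each library. Promoter sequences were taken from RefSeq (GRCm38.p6). Some genes that the rule names are not reported here.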

Additional observations from a re-analysis of the deposited data

Results flagged for a closer look

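Itgb5 and Unc45a lay on opposite sides of 0 in the 2 zones, with no overlap between the libraries at 8 h and at 24 h in either zone. Only named genes were searched for this pattern. Both had been named for a small p of the zone difference, so the pattern follows in part from how they were chosen. How many of all genes tested show it was not counted. Itgb5, an integrin subunit, was at 42.1, 35.8 and 42.1 CPM and then 48.7, 44.9 and 45.4 CPM in pericentral cells and at 56.2, 61.9 and 80.3 CPM and then 39.9, 38.8 and 36.0 CPM in periportal cells, a log2 difference of 1 between the zones. Unc45a, a chaperone of myosin, was at 13.4, 11.5 and 11.3 CPM and then 11.2, 9.45 and 6.23 CPM in pericentral cells and at 9.85, 9.78 and 9.22 CPM and then 12.7, 16.2 and 12.9 CPM in periportal cells, a difference of -0.95. The difference was tested over all genes and was called for neither (edgeR adjusted p = 0.711 for both). Groups of 3 libraries were too small for a test of single outlying libraries.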

How the results depend on the processing

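The number of genes called in pericentral hepatocytes, 1212, was 617 when the fit held only the 6 libraries compared and 534 to 1020 when each of them was left out in turn. It was 1195 to 1245 under DESeq2 size factors, scaling without the 20 most abundant genes and a minimum mean of 1 CPM, 886 with no filter beyond 1 count, 1580 by the DESeq2 Wald test and 1176 by limma-voom. Of the 1212 genes, 566 were also called with only the 6 libraries and 506 without replicate 1 at 8 h. In periportal hepatocytes 413 genes were called with only the groups compared, and 335 to 783 with each library left out, against 931. For the difference between zones DESeq2 called 3 genes, and 0 to 2 were called when a library was left out. Signs turned for 4 genes that were not called. On leaving out a library, Cyp7a1 ranged from -0.0496 without replicate 1 at 24 h to 0.73 and Fgf21 from -0.12 without replicate 3 at 24 h to 0.96. Hspa5 ranged from -0.18 to 0.0887 without replicate 1 at 8 h, and Glul from -0.69 to 0.33 without replicate 2 at 24 h. Of 141 called genes among those named or listed, 60 kept their call under all 14 alternatives, 76 lost it when some library was left out and 50 with only the groups compared. The cause was not tested. Pericentral 8 h and 24 h libraries of the same number did not deviate together (correlations of 0.06, 0.00 and 0.04). These groups were killed at different times, so this cannot show whether libraries of one number share a mouse. Whether pericentral and periportal libraries of one number deviate together was not examined. With the replicate block 1282 genes were called in pericentral cells, 965 in periportal cells and 0 for the zone difference. Depth limits genes of few counts, such as Marco with 2 counts over the 8 h group and 12 over the 24 h group.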
